A study of Rattus norvegicus with 6 samples.

Results

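Keratins, ductal markers, classical cadherins and vimentin describe which epithelial and mesenchymal programs a piece of liver expresses. The set described here holds 9 genes, chosen by name as the rows of the deposited table labelled Krt8, Krt18, Krt7, Krt19, Epcam, Sox9, Cdh1, Cdh2 and Vim, out of 32623 genes in all. Messenger RNA was measured by bulk sequencing in 6 rat liver samples. Of these, 3 came from livers embolized with blank microspheres, the control (GM), and 3 from livers embolized with zinc sulfide microspheres (GZM). All 6 livers were embolized, meaning that particles were lodged in their blood supply, so liver without embolization was not measured. The sources used here give no strain, age or time after embolization, nor whether the sampled liver contained tumour. Samples carry replicate numbers 1 to 3, with no statement that each is a different animal, and the spread behind the p-values may therefore be partly technical.

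Keratins are intermediate filament proteins that assemble as pairs of a type II and a type I chain. Hepatocytes make the pair of keratin 8 (type II) and keratin 18 (type I), and bile duct cells add keratin 7 (type II) and keratin 19 (type I). EpCAM, a surface adhesion protein, and SOX9, a transcription factor, mark bile ducts and liver progenitor cells in the adult. Hepatocytes carry both E-cadherin (Cdh1) and N-cadherin (Cdh2) at their junctions, so N-cadherin is not a mesenchymal marker on its own in this organ. Vimentin (Vim) is the intermediate filament protein of fibroblasts, stellate cells, endothelium and leukocytes, and in cultured or transformed epithelium a rise of vimentin with a fall of E-cadherin is the textbook sign of a shift to a mesenchymal state.

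Promoter sequences from RefSeq (build GRCr8) were available for 4 of the 9 genes. They are shown because Krt8 and Krt18 are neighbours on one chromosome yet behaved differently, because Vim was the gene of the set that fell, and because Epcam was the ductal marker that rose. Each line runs 5′ to 3′ on the gene's strand, from 250 to 76 bases before the annotated start. Capitals mark matches, read on both strands, to the TATA box TATAAA, the GC box GGGCGG, the CCAAT box or the AP-1 motif TGACTCA.
Krt8 (chr7:135010415-135010589, minus strand): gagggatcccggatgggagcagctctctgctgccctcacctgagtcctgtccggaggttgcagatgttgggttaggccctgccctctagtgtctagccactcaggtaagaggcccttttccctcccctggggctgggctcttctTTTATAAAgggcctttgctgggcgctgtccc
Krt18 (chr7:135035918-135036092, plus strand): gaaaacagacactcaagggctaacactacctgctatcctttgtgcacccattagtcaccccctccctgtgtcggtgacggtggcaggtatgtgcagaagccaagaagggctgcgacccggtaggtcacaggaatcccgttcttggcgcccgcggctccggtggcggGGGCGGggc
Epcam (chr6:12649754-12649928, minus strand): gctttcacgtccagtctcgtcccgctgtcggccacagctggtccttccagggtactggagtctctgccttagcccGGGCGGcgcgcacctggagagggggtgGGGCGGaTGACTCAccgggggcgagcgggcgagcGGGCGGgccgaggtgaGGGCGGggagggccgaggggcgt
Vim (chr17:81577011-81577185, plus strand): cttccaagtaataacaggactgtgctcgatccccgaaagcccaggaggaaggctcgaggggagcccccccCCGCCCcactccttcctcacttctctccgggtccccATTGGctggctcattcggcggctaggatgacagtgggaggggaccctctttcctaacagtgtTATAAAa

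The Krt8 stretch holds overlapping TATA box letters on both strands, and the Vim stretch holds a TATA box, a GC box and a CCAAT box. The Krt18 stretch holds 1 GC box, and the Epcam stretch holds 4 GC boxes and 1 AP-1 motif. Over the same stretch of all 33469 promoters in the reference, 8.79% hold a TATA box, 20.1% a GC box, 25.2% a CCAAT box and 2.86% an AP-1 motif. These letter matches describe the sequences and show no binding.

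All 9 genes passed the filter on low counts, and 5 of them changed in edgeR's quasi-likelihood test at an adjusted p under 0.05. Krt18, Cdh1, Cdh2 and Epcam were higher in GZM and Vim was lower, while Krt8, Krt7, Krt19 and Sox9 did not pass. Among all 14298 tested genes 44% were called, 22.2% as higher and 21.7% as lower, so the called share of the set is near that of the table as a whole. In CPM the groups did not overlap for the same 5 genes, against 58.1% of all tested genes (28.4% with GZM above and 29.7% with GZM below). CPM are counts scaled to a common library size with TMM factors, which correct for a few very abundant genes taking up reads. With plain library totals instead, the median log2 fold change of all tested genes was -0.92 rather than -0.09, a shift of -0.83. On that scale 68.7% of genes were called, 9.2% as higher and 59.5% as lower, and 4 of the 9 members were called. Of the called genes 50.6% were higher with TMM and 13.4% with library totals.

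Marker lists of several cell types differed between the groups. Total counts ran from 13443115 to 16604067. The 12 hepatocyte markers took 12.0%, 12.0% and 11.3% of all counts in GZM 1, 2 and 3, and 3.23%, 2.36% and 7.01% in GM 1, 2 and 3. All 12 were detected, 11 rose and Cyp2e1 did not pass, with a median log2 fold change of 2.48. Summed CPM of the 11 leukocyte markers was 3495 to 5591 in GM and 1165 to 1790 in GZM, and 7 of them fell, the pan-leukocyte gene Ptprc by 1.36 on the log2 scale and the myeloid integrin gene Itgam by 1.78. Hnf4a, a nuclear receptor needed for mature hepatocytes, rose by 2.57 (adjusted p = 0.00391). All 8 cell division markers fell, with summed CPM of 482 to 1210 in GM and 194 to 213 in GZM. In bulk tissue fewer cells of a type and less RNA per cell cannot be told apart, and the part of these markers in the results below was not tested.

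Krt18 showed the largest difference of the set. The gene (ENSRNOG00000047393, chromosome 7, 143629455 to 143633131 in the deposited positions) stood at 79.3, 55.1 and 101.7 CPM in GM 1, 2 and 3, and at 359, 1338 and 1200 CPM in GZM 1, 2 and 3. Every GZM library was above every GM library, and GZM 1 was the lowest of its group by a wide margin. Krt18 was 12.3-fold higher in GZM (log2 fold change 3.62 ± 0.52 SE, edgeR adjusted p = 0.00271). The log2 fold change was 2.81 with library totals (adjusted p = 0.00168). Leaving out GM 3 together with GZM 1 gave 4.31 (adjusted p = 4.41e-05). These were the highest GM and the lowest GZM library for Krt18, so this setting favours a larger difference and is no check on it. The hepatocyte markers Apoa1 (1410, 3538 and 2978 CPM in GZM 1, 2 and 3) and Cyp2e1 (1800, 403 and 323 CPM) set GZM 1 apart in opposite directions, and the share of all 12 markers was 12.0%, 12.0% and 11.3%. Their part in the Krt18 difference was not tested.

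Krt8, the partner of Krt18, was not called. The gene (ENSRNOG00000009779, chromosome 7, 143596511 to 143603803) stood at 335, 571 and 188.5 CPM in GM and at 301, 994 and 1129 CPM in GZM, in the order of the replicate numbers. The groups overlapped, because GM 2 and GM 1 held more Krt8 than GZM 1. The log2 fold change of 1.15 ± 0.55 SE did not pass (edgeR adjusted p = 0.125), and it was 0.28 with library totals (adjusted p = 0.672). Without GZM 1, the low library, Krt8 passed as higher (1.55, adjusted p = 0.0334), as it did when GM 3 was left out together with GZM 1 (1.31, adjusted p = 0.00555). GM 3 and GZM 1 were the lowest libraries of their groups for Krt8. Leaving them out narrows the spread, so these calls are no check on the main result. Within each group the highest library held 3.66 times (GM) and 4.00 times (GZM) the FPKM of the lowest.

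**Figure D1:**
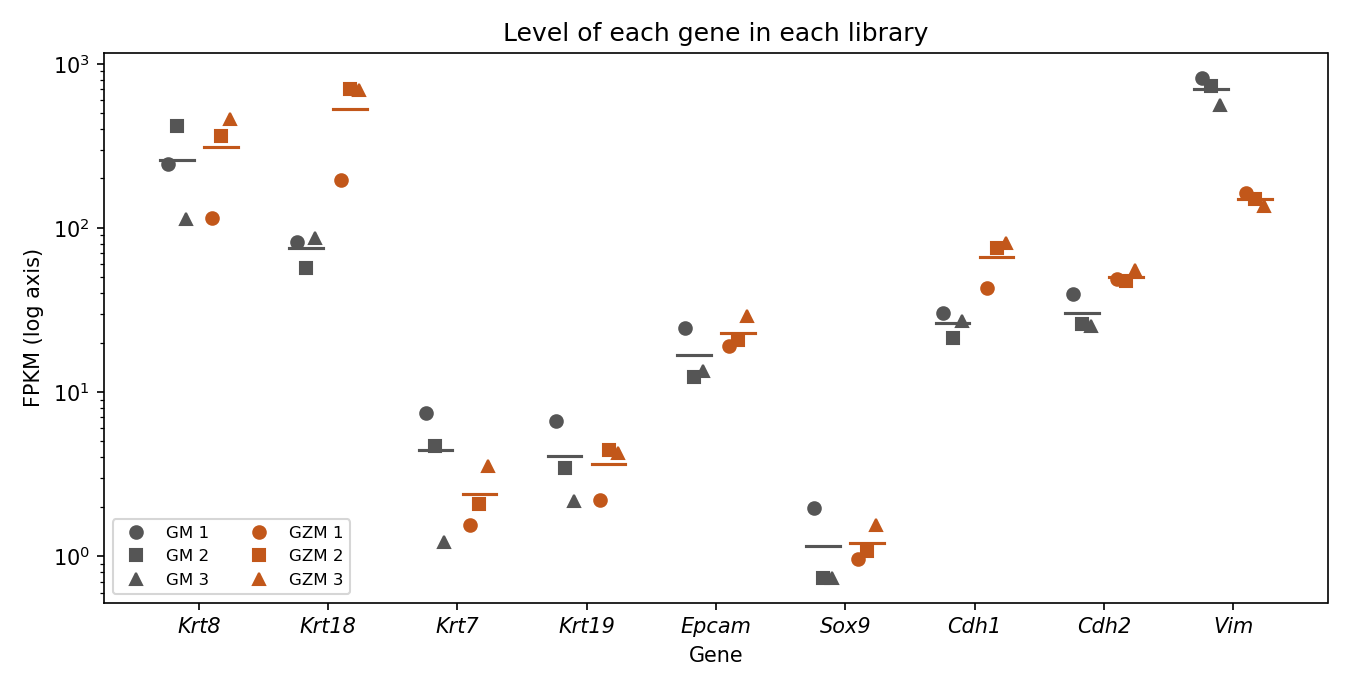
Level of each of the 9 genes in each library, as FPKM (fragments scaled to exon length and library size) on a log axis; points are libraries and short lines are group means of 3. Krt18 and Vim separate the groups in opposite directions, while the Krt8 points of both groups overlap between 113 and 459 FPKM.

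The balance of the keratin pair within a library shows the difference without any scaling between libraries. Per exon length, Krt8 stood at 2.96, 7.27 and 1.30 times the level of Krt18 in GM 1, 2 and 3, and at 0.589, 0.522 and 0.66 times that level in GZM 1, 2 and 3. Krt8 was therefore the more abundant transcript in every GM library and the less abundant in every GZM library. The mean log2 ratio was 1.60 ± 1.24 in GM and -0.77 ± 0.17 in GZM (SD, n = 3 each), a difference of -2.37 (exact permutation test, two-sided, p = 0.1). With 3 samples against 3 no exact p can go below 0.1. Adjusted over the 4 ratios examined in the set, the p was 0.133. GM 2 held the largest excess of Krt8, and without it the difference was -1.74.

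The order of the GM libraries in the pair differed between its members. Krt8 was highest in GM 2, followed by GM 1 and GM 3, the order in which the cell division markers stood (1210, 910 and 482 summed CPM). Krt18 was highest in GM 3, followed by GM 1 and GM 2, the order of the hepatocyte markers. In GZM the orders did not match. Krt18 was lowest in GZM 1, while the hepatocyte markers were lowest in GZM 3 (162200, 167400 and 143100 summed CPM in GZM 1, 2 and 3). Krt8 was highest in GZM 3, while the cell division markers were highest in GZM 2 (194, 213 and 208 summed CPM). These orders rest on 3 libraries per group and were not tested.

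The genes lie side by side and point away from each other, with 25.7 kilobases between them in the deposited positions. The only row of the table between them, an unnamed gene, had 0 to 3 counts in each library. Beyond Krt8 in the keratin cluster, Krt79 rose by 1.75 on the log2 scale (adjusted p = 0.00851, named after its values were seen) and Krt4 by 2.53 (adjusted p = 0.00365). Beyond Krt18, the translation factor gene Eif4b fell by 0.81 (adjusted p = 0.0313) and the adhesion gene Tns2 stood at -0.16 (adjusted p = 0.618; -1.02, adjusted p = 0.0143 with library totals), both given as neighbours.

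Summed over all keratin genes, the type II chains exceeded the type I chains in GM and the reverse held in GZM. Over 21 type II and 26 type I genes, the ratio of summed FPKM, type II over type I, was 2.40, 5.43 and 1.34 in GM and 0.689, 0.543 and 0.687 in GZM. Krt8 made up 81.8% to 97.1% of the type II sum over the 6 libraries. Krt18 made up 72.5% to 89.8% of the type I sum in GM and 95.7% to 98.4% in GZM. The whole type I sum was 78.7 to 109 FPKM in GM against 204 to 710 in GZM. Keratin genes have processed copies in mammalian genomes, and how the deposited counts treated reads that match several places is not given, so the size of this imbalance carries that uncertainty.

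**Figure D2:**
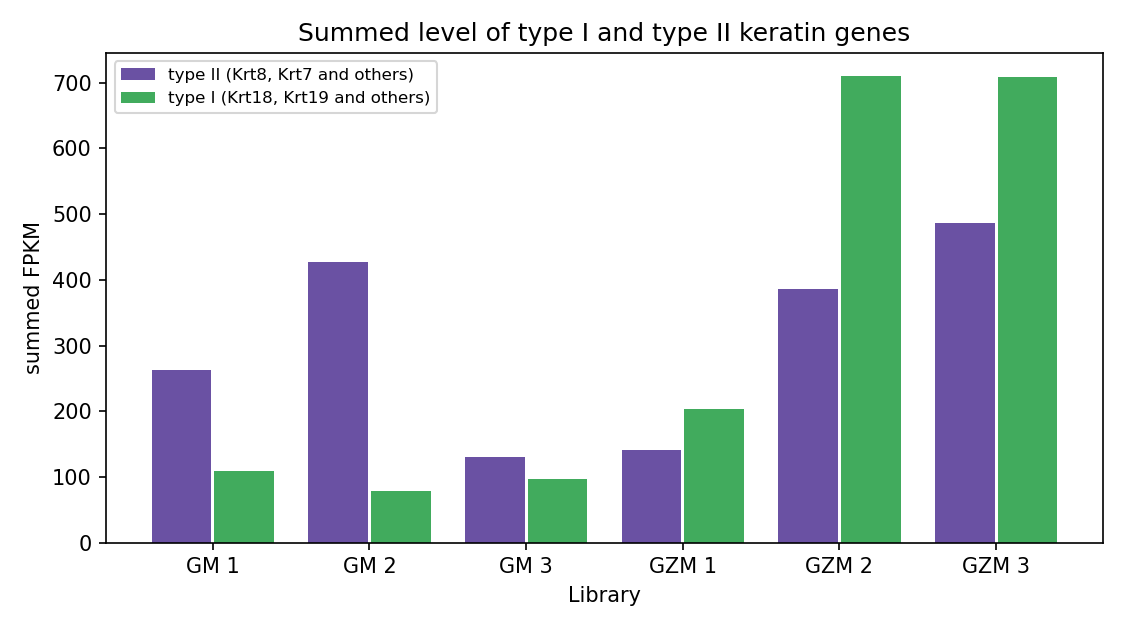
Summed FPKM of all type II and all type I keratin genes in each library, as bars from 0. The type II bar is the taller in GM 1, 2 and 3 and the type I bar in GZM 1, 2 and 3.

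The other keratins listed were scarce and moved both ways. Of 16 on the list 15 were matched and 7 tested, with 2 higher, 2 lower and a median of 0.55, or -0.31 with library totals. Krt79, which is not on the list and rose as given above, was more abundant than most of these. It stood at 7.84, 5.78 and 14.16 FPKM in GM and at 18.25, 15.84 and 20.41 FPKM in GZM (0.97 on the log2 scale with library totals). Krt2 (3.98 on the log2 scale, adjusted p = 0.00227) and Krt4 rose, from 0.365 and 0.749 CPM in GM. Krt17, a keratin of basal and regenerating epithelium, fell by 3.21 (adjusted p = 0.00811), from 168 counts over the GM libraries to 9 over the GZM libraries. Krt14, its basal relative, fell by 2.16 (adjusted p = 0.0365), which no longer passed if GM 1, GM 2, GZM 1, GZM 2 or GZM 3 was dropped (0.064 to 0.12). Krt16, which failed the filter, had 35, 89 and 8 counts in GM and 0, 0 and 1 in GZM (named after its values were seen). The deposited span of Krt14 (chromosome 10, 88055823 to 88122233) contains Krt19 and overlaps that of Krt17. The span of Krt17 contains Krt16, and all of them are on the same strand. How shared reads were assigned is not given, so these counts carry that uncertainty. All of these lay far below the hepatocyte pair, which made up 88.1% to 97.0% of all keratin FPKM in the 6 libraries.

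The ductal keratins did not differ detectably between the groups. Krt7 (ENSRNOG00000008057, chromosome 7, 143059764 to 143075907) stood at 10.9, 6.81 and 2.16 CPM in GM and at 4.31, 6.03 and 9.19 CPM in GZM. The groups overlapped fully, GM 3 being the lowest of all 6 libraries and GM 1 the highest. The log2 fold change was -0.02 ± 0.55 SE (adjusted p = 0.983), and its sign turned in 7 of the 14 other settings. It was -0.90 with library totals (adjusted p = 0.205).

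Krt19 (ENSRNOG00000014233, chromosome 10, 88055841 to 88060561) stood at 6.46, 3.36 and 2.57 CPM in GM and at 4.11, 8.58 and 7.46 CPM in GZM. On this scale GZM 2 and GZM 3 were the highest libraries and GZM 1 lay within the GM range. In deposited FPKM GM 1, at 6.66, lay above GZM 2 (4.43) and GZM 3 (4.27). The log2 fold change of 0.70 ± 0.43 SE did not pass (adjusted p = 0.215) and was -0.17 with library totals (adjusted p = 0.759). The ratio of Krt19 to the hepatocyte keratin Krt18 separated the groups, and only Krt18 of this pair was called on its own. Per exon length, Krt18 exceeded Krt19 12.4, 16.5 and 39.9 times in GM and 88.1, 158 and 163 times in GZM, so the groups did not overlap. The mean log2 ratio of Krt19 to Krt18 was -4.33 ± 0.88 in GM and -7.04 ± 0.50 in GZM (SD, n = 3 each; difference -2.70, exact permutation p = 0.1, adjusted p = 0.133). In the deposited positions Krt19 lies wholly within the span of Krt14 on the same strand. How shared reads were assigned is not given, so the level of Krt19 and this ratio carry that uncertainty.

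Of the ductal and progenitor markers only Epcam was called. Epcam (ENSRNOG00000015667, chromosome 6, 11281964 to 11298216) stood at 30.1, 15.2 and 19.9 CPM in GM and at 45.1, 50.5 and 64.0 CPM in GZM. All GZM libraries were above all GM libraries on this scale, but in deposited FPKM GM 1, at 24.5, lay above GZM 1 (19.1) and GZM 2 (20.6). Epcam was 2.45-fold higher (log2 fold change 1.29 ± 0.27 SE, edgeR adjusted p = 0.00733). The call was lost with library totals (0.45, adjusted p = 0.201), so its rise depends on the scaling.

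Sox9 (ENSRNOG00000002607, chromosome 10, 101288489 to 101293379) was the least abundant gene of the set per exon length. It stood at 4.73, 1.79 and 2.16 CPM in GM and 4.41, 5.19 and 6.67 CPM in GZM. On this scale GM 1 lay within the GZM range, and the other GM libraries lay below that range. In deposited FPKM GM 1, at 1.97, lay above every GZM library (0.96 to 1.55). The log2 fold change was 0.91 ± 0.42 SE (adjusted p = 0.114), or 0.06 with library totals. Without GM 1 Sox9 passed as higher (1.46, adjusted p = 0.0292).

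Few other biliary and progenitor markers were called. Of 17 on the list 15 were matched and 13 tested, with 2 higher, none lower and 11 not called, a share of calls below the 44% of all genes. The list median was 0.17, turning to -0.70 with library totals, where 1 was higher and 3 lower. Slc10a2, the bile acid transporter of cholangiocytes and ileum, rose by 2.28 from 0.612 CPM (adjusted p = 0.0242), a call lost without GM 2, GZM 2 or GZM 3 (adjusted p from 0.053 to 0.0812), with the replicate number as a block (0.051) and with library totals (0.0775). Osteopontin (Spp1) stood at -0.96 (adjusted p = 0.0723), and passed as lower with library totals (-1.77, adjusted p = 0.00358), with DESeq2 (adjusted p = 0.0491), with no low-count filter (0.0494) and without GM 2 (0.0168). The anion exchanger gene Slc4a2 stood at 0.42 (adjusted p = 0.0513, turning to -0.42 with library totals), and passed as higher with median-of-ratios factors (0.0418) and without GM 3 (0.0443).

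Both cadherins rose. Cdh1 (ENSRNOG00000020151, chromosome 19, 38768467 to 38838395), E-cadherin, stood at 93.9, 66.4 and 101.5 CPM in GM and at 255, 462 and 449 CPM in GZM. Each GZM library exceeded each GM library, with GZM 1 again the lowest of its group. Cdh1 was 4.45-fold higher (log2 fold change 2.16 ± 0.29 SE, adjusted p = 0.00247), or 1.33 with library totals (adjusted p = 0.00358).

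Cdh2 (ENSRNOG00000015602, chromosome 18, 8146971 to 8360684), N-cadherin, stood at 121, 79.4 and 93.7 CPM in GM and at 285, 289 and 301 CPM in GZM. The GZM libraries were close to each other, and none overlapped GM. Cdh2 was 2.98-fold higher (1.57 ± 0.20 SE, adjusted p = 0.00236), or 0.73 with library totals (adjusted p = 0.0194). The cadherins thus moved the same way. Per exon length Cdh1 stood at 0.766, 0.825 and 1.07 times Cdh2 in GM and at 0.884, 1.58 and 1.47 times in GZM. GM 3 lay above GZM 1 in this ratio. The difference in mean log2 ratio was 0.53 (-0.19 ± 0.25 in GM, 0.34 ± 0.46 in GZM; SD, n = 3 each). The exact permutation p was 0.2, and with 3 samples against 3 none of the 4 ratios could go below 0.1.

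**Figure D3:**
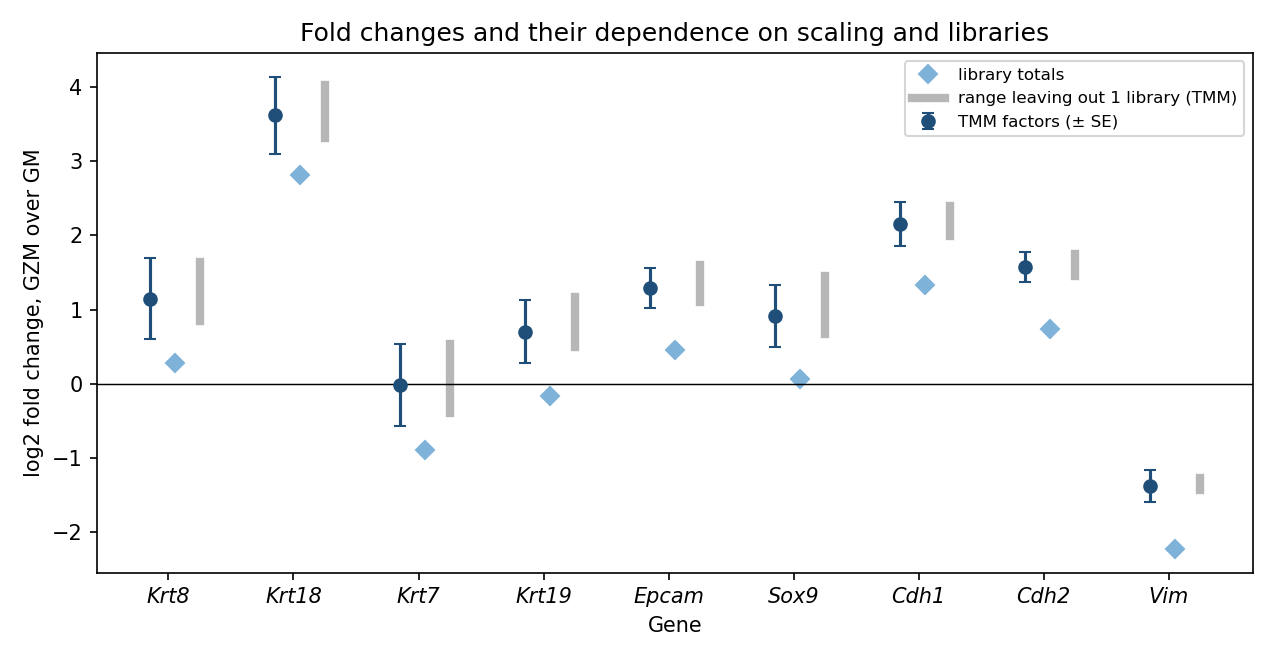
Log2 fold change of GZM over GM for the 9 genes: circles with bars are edgeR estimates ± SE on the TMM scale, diamonds are the same with library totals, and grey bars span the estimates on leaving out 1 library at a time. Krt18, Cdh1 and Cdh2 stay above 0 and Vim stays below 0 on both scales, while Krt19 turns to -0.17 with library totals.

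Vim was the gene of the set that fell. The gene (ENSRNOG00000018087, chromosome 17, 80882666 to 80891212) stood at 1067, 954 and 884.5 CPM in GM and at 408, 392 and 319 CPM in GZM. The libraries of each group were close together and the groups did not overlap. Vim was 2.60-fold lower in GZM (log2 fold change -1.38 ± 0.22 SE, adjusted p = 0.00325), or -2.23 with library totals (adjusted p = 0.000742). The leukocyte marker Ptprc, which hepatocytes and fibroblasts lack, stood at 269, 227 and 344 CPM in GM and at 135, 83.6 and 109 CPM in GZM, and its part in the Vim difference was not tested.

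Vim exceeded Krt18 in every GM library and lay below it in every GZM library. Per exon length Vim stood at 9.92, 12.8 and 6.41 times Krt18 in GM, and at 0.838, 0.216 and 0.196 times in GZM. The mean log2 ratio was 3.22 ± 0.50 in GM and -1.61 ± 1.17 in GZM (SD, n = 3 each), a difference of -4.83, or 28.4-fold (exact permutation p = 0.1, adjusted p = 0.133). It was the largest of the 4 ratio differences, and was -5.50 without GZM 1.

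**Figure D4:**
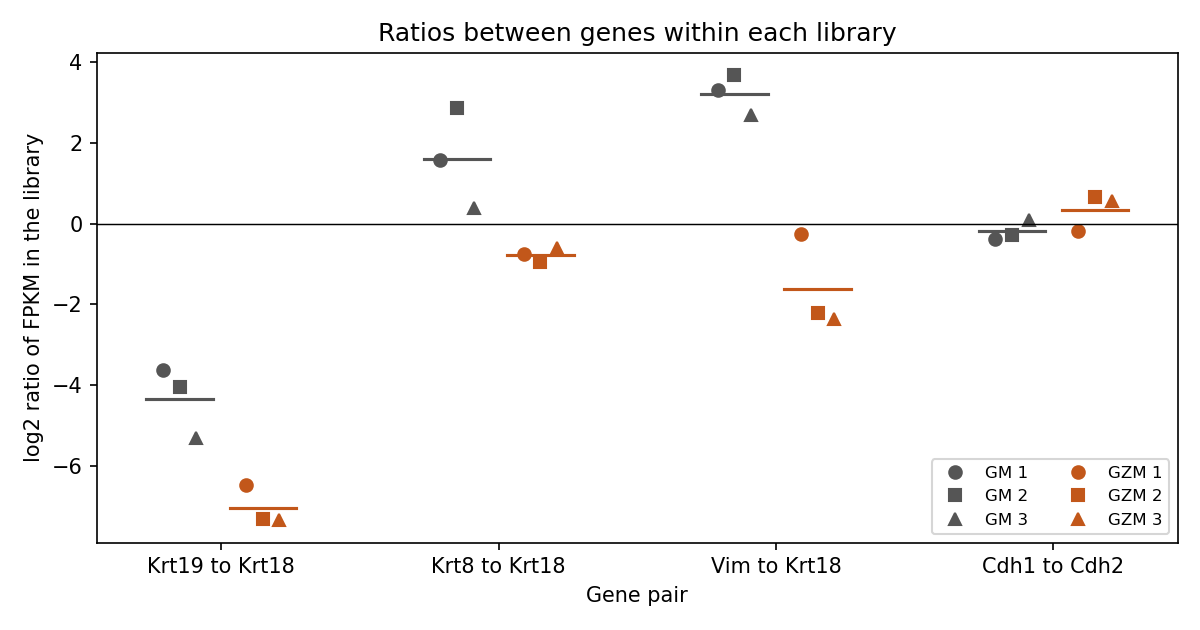
Log2 ratio of FPKM between genes of the set within each library; points are libraries and short lines are group means of 3. The groups are apart for Krt19, Krt8 and Vim against Krt18, and overlap for Cdh1 against Cdh2.

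Ordered by FPKM, a level per exon length, GM ran from Vim (702 ± 132) through Krt8 (258 ± 151), Krt18 (75.6 ± 16.2), Cdh2 (30.3 ± 8.15), Cdh1 (26.3 ± 4.57), Epcam (16.7 ± 6.75), Krt7 (4.46 ± 3.14) and Krt19 (4.10 ± 2.31) to Sox9 (1.15 ± 0.71; SD, n = 3). Within 1 SD, Cdh2 and Cdh1, Cdh1 and Epcam, Krt7 and Krt19, and Krt19 and Sox9 overlapped. In GZM the order was Krt18 (529 ± 290), Krt8 (312.5 ± 178), Vim (150.0 ± 13.5), Cdh1 (66.3 ± 20.4), Cdh2 (50.4 ± 4.01), Epcam (22.9 ± 5.30), Krt19 (3.64 ± 1.24), Krt7 (2.39 ± 1.02) and Sox9 (1.20 ± 0.312; SD, n = 3). Here Krt18 and Krt8, Krt8 and Vim, Cdh1 and Cdh2, Krt19 and Krt7, and Krt7 and Sox9 overlapped. Vim went from the first place to the third and Krt18 from the third to the first, while Krt8, Epcam and Sox9 kept their places.

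Among genes that sit with the cadherins and keratins at cell junctions, those of the tight junction were mostly higher in GZM. Over all tested genes 22.2% were called higher and 21.7% lower, or 9.2% and 59.5% with library totals. Of 17 tight junction genes 16 were tested, 12 rose and none fell, with a median log2 fold change of 1.88 (1.07 with library totals, where 8 were higher and 1 lower). The claudins Cldn3 and Cldn2, which set the permeability of the barrier, rose by 2.91 (adjusted p = 0.00192) and 2.24 (adjusted p = 0.00226). The junctional adhesion molecule F11r rose by 2.88 (adjusted p = 0.00227) and cingulin (Cgn), which links the junction to the cytoskeleton, by 2.68 (adjusted p = 0.00244). F11r stood at 200 CPM in GZM 1 against 433 and 432 in GZM 2 and 3, the same order as Krt18.

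The list of desmosome genes and keratin linkers, which anchor keratin filaments, split. Of 11 tested genes 6 rose and 3 fell, with a median of 1.06 (0.22 with library totals). Perp, a desmosomal membrane protein, rose by 2.72 (adjusted p = 0.00192), and the plakophilins Pkp4 by 1.65 (adjusted p = 0.00192) and Pkp3 by 2.01 (adjusted p = 0.00236). Plakoglobin (Jup) rose by 1.06 (adjusted p = 0.00241), a call lost with library totals (0.22, adjusted p = 0.302). The desmosomal cadherins Dsg2 (2.55, adjusted p = 0.00296) and Dsc2 (2.03, adjusted p = 0.00829), named after their values were seen, also rose. With library totals they stood at 1.74 (adjusted p = 0.00362) and 1.26 (adjusted p = 0.015). Those that fell, named after their values were seen, were envoplakin (Evpl, -3.86, adjusted p = 0.00307), plakophilin 1 (Pkp1, -1.59, adjusted p = 0.0166) and plectin (Plec, -0.91, adjusted p = 0.0189). Pkp1 lost its call without GM 1, GZM 2 or GZM 3 (adjusted p from 0.054 to 0.0638), and Plec without any GZM library (adjusted p from 0.0511 to 0.0631). Evpl and Pkp1 are best known from stratified epithelium.

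Of 9 tested partners of the cadherins at the adherens junction 3 rose and none fell, with a median of 0.07 (2 higher, 3 lower and -0.78 with library totals). The risers were the nectins Nectin2 (1.77, adjusted p = 0.00185) and Nectin1 (2.81, adjusted p = 0.00227), which start junction assembly, and the polarity gene Pard3 (0.75, adjusted p = 0.00946), which turned to -0.10 with library totals. Vinculin (Vcl) stood at -0.56 (adjusted p = 0.107; -1.43, adjusted p = 0.00424 with library totals), and the catenin genes Ctnna1, Ctnnb1 and Ctnnd1 did not pass, at -0.25, -0.05 and 0.30. With library totals Ctnna1 (-1.10, adjusted p = 0.00931) and Ctnnb1 (-0.89, adjusted p = 0.00784) passed as lower, and Ctnnd1 turned to -0.55 without passing.

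Among other cadherins 1 of 7 tested genes rose and 2 fell, with a median of -1.07 (5 lower and -1.92 with library totals). Cdh17, liver-intestine cadherin, rose by 2.58 (adjusted p = 0.00947), from 34.7, 40.4 and 15.1 CPM in GM to 59.8, 226 and 256 CPM in GZM, with GZM 1 again lowest of its group. Cdh6, a fetal kidney cadherin, fell by 5.04 (adjusted p = 0.00425), from 8.34, 10.7 and 2.06 CPM to 0, 0.283 and 0.314 CPM. Cdh15 fell by 2.67 (adjusted p = 0.0147), a call lost without GZM 1 (0.0503) or GZM 3 (0.059). Cdh13 did not pass (-1.03, adjusted p = 0.0632), but was lower with library totals (-1.86, adjusted p = 0.00347), with DESeq2 (adjusted p = 0.0381), without GM 2 (0.0344), without GZM 1 (0.0378) and without GM 3 and GZM 1 together (0.0463).

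Of the factors that control the epithelial or mesenchymal state, 4 were called. Of 12 listed genes 10 were tested, with 1 higher and 3 lower, a share of calls near the 44% of all genes. The list median was -0.46 (8 lower and -1.31 with library totals, where 59.5% of all genes were lower). Twist1, a repressor of E-cadherin, fell by 3.06 (adjusted p = 0.00218), from 13.02, 18.8 and 8.38 CPM in GM to 1.71, 1.70 and 1.41 CPM in GZM. Zeb2, another such repressor that macrophages also express, fell by 1.89 (adjusted p = 0.00227). Zeb1 fell by 1.23 (adjusted p = 0.0183), a call lost without GM 1, GM 2, GZM 1 or GZM 2 (adjusted p from 0.0512 to 0.0727). Esrp2, which directs epithelial splicing in hepatocytes, rose by 2.30 (adjusted p = 0.00355). The other epithelial factors tested, Esrp1 (0.11), Grhl1 (-1.52), Grhl2 (-0.38) and Ovol1 (-0.21), did not pass, and with library totals Grhl1, Grhl2 and Ovol1 passed as lower (adjusted p from 0.0103 to 0.0393). Snai1 (-0.34, adjusted p = 0.414) and Snai2 (-0.55, adjusted p = 0.234), named as well-known repressors of the same kind, did not pass. With library totals both were lower (-1.20, adjusted p = 0.0128, and -1.39, adjusted p = 0.00865).

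**Figure D5:**
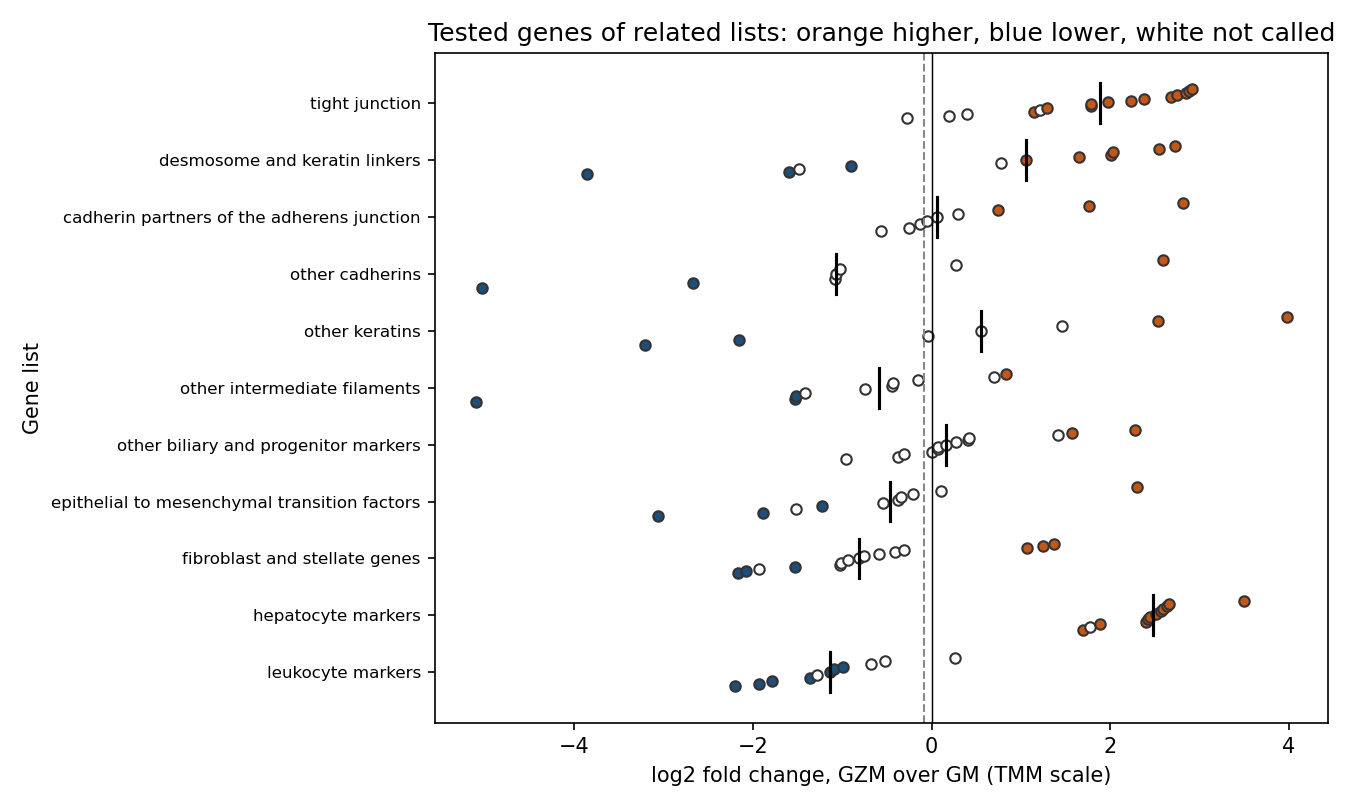
Log2 fold change of GZM over GM (TMM scale) for the tested genes of 11 related lists; orange points passed as higher, blue as lower, white did not pass, black ticks are list medians and the dashed line is the median of all tested genes, -0.09. The tight junction list has its median at 1.88 and the biliary list at 0.17.

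Other intermediate filament genes mostly failed to pass or fell. Of 10 tested genes 3 fell and 1 rose, a share of calls near the 44% of all genes. The list median was -0.59 (8 lower and -1.45 with library totals, where 59.5% of all genes were lower). The nuclear lamins Lmnb1 and Lmnb2 fell by 1.53 (adjusted p = 0.0041) and 1.52 (adjusted p = 0.00937). The neurofilament gene Nefm fell by 5.10 (adjusted p = 0.00369), from 16.5, 43.4 and 8.79 CPM in GM to 0.1, 1.41 and 0.471 CPM in GZM. Synemin (Synm) rose by 0.83 (adjusted p = 0.00686), a call lost with library totals (0.01). Desmin (Des), the filament of smooth muscle and stellate cells, did not pass (-0.44, adjusted p = 0.206), but was lower with library totals (-1.29, adjusted p = 0.00467).

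Fibroblast and stellate genes did not fall as a block with Vim. Of 15 tested genes 3 rose, 3 fell and 9 did not pass, a share of calls near the 44% of all genes. The list median was -0.81 (none higher, 11 lower and -1.66 with library totals, where 59.5% of all genes were lower). S100a4, shared by fibroblasts and macrophages, fell by 2.17 (adjusted p = 0.00369). Thy1, of fibroblasts and T cells, fell by 2.08 (adjusted p = 0.0227), a call lost without GM 1 (0.0636) or GZM 2 (0.0842). Col1a1 fell by 1.52 (adjusted p = 0.0386), a call lost without GM 1, GZM 2 or GZM 3 (adjusted p from 0.108 to 0.137). Fibronectin (Fn1), which hepatocytes secrete into plasma, rose by 1.37 (adjusted p = 0.0101; 0.54, adjusted p = 0.106 with library totals). Reln, made by stellate cells, rose by 1.25 (adjusted p = 0.0156; 0.43, adjusted p = 0.241 with library totals). Lrat, of stellate cells, rose by 1.07 (adjusted p = 0.0372), a call lost with library totals (0.25, adjusted p = 0.543) and without GM 2, GZM 1 or GZM 3 (adjusted p from 0.0787 to 0.106). Col1a1 and Lrat were named after their values were seen.

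Lists of cells that could also carry these markers gave the following. Of 7 tested endothelial markers, cells that contain vimentin, 4 rose and 1 fell (median 0.78, or -0.03 with library totals). The sinusoidal receptor gene Lyve1 rose by 1.57 (adjusted p = 0.00938; 0.78, adjusted p = 0.0516 with library totals), and Vwf fell by 1.07 (adjusted p = 0.0342), a call lost without GM 1, GM 2, GZM 2 or GZM 3 (adjusted p from 0.0696 to 0.113). Of 3 tested mesothelial markers, a lining that expresses keratins 8, 18 and 19, none rose and 1 fell, and the summed CPM of all 5 listed markers was 17.6 to 38.0 in GM and 20.1 to 25.4 in GZM. The faller was Upk1b (-4.22, adjusted p = 0.00853), while mesothelin (Msln) did not pass (0.46, adjusted p = 0.295, or -0.40 with library totals). Of 4 tested intestinal and pancreatic markers 2 rose and 1 fell. Fabp2 rose by 3.87 (adjusted p = 0.00384), Cdx2, the intestinal master regulator, fell by 4.54 (adjusted p = 0.00315), and the pancreatic gene Prss1 had no count in any library. Of 7 tested targets of YAP and TAZ, coactivators active in bile ducts, Ajuba (1.02, adjusted p = 0.006) and Amotl2 (0.75, adjusted p = 0.0168) rose and none fell. Both calls were lost with library totals (0.18 and -0.09), where 3 other targets were lower, and that of Amotl2 also without GZM 2 (0.0709) or GZM 3 (0.0569).

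The genes whose pattern over the 6 libraries lay nearest to a member were found by the root mean square difference of log2 CPM centred on each gene's mean, among 12869 other genes with a symbol. For Krt18 they were Fabp2 (0.163), a fatty acid binding protein of the intestine, the liver glucose transporter gene Slc2a2 (0.197) and Tmem30b (0.202), a partner of lipid flippases. Fabp2 had only 8, 7 and 16 counts in GM 1, 2 and 3, so its pattern within GM lies near the floor. For Krt19 they included Ap1m2 (0.172), an adaptor of epithelial sorting, and the actin-binding tropomyosin 1 (Tpm1, 0.198). For Vim they were Hif1a (0.106), the oxygen-regulated transcription factor subunit, the Notch-modifying enzyme gene Lfng (0.107) and the myeloid nuclear antigen gene Mnda (0.109). These distances are descriptions over 6 libraries in 2 groups.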

How the data were processed

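RNA was extracted with TRIzol and made into strand-specific, polyadenylated-RNA libraries, per the labels' protocols. No source used here names the aligner, the counter or the strand setting, so overlapping and near-identical genes are uncertain. The build is mRatBN 7.2 per the submitters' processing notes, but deposited positions reach 282724300 on chromosome 1, beyond that build, so they are printed as deposited. The authors' table holds raw counts per gene. The deposited FPKM values equal counts divided by exon length and summed counts (195738 of 195738 values within 0.01, recomputed). The exon length column is a deposited size in bases. Columns spelled ZGM were matched to GZM samples by letters and number.

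Counts were tested with edgeR 4.0.16 (R 4.3.3; TMM, default low-count filter, Benjamini-Hochberg over 14298 genes). The SE is implied by the quasi-F value. Ratios used FPKM with an exact permutation test. Alternatives used DESeq2 1.42.0, limma 3.58.1 on log2 FPKM, other scalings and left-out libraries. The scripts were tested on simulated data. The keratin type sums were added after the data were seen. Replicates differed by more than sampling noise (chi-square per degree of freedom 10.5 to 194). Each counted as 1 sample, though this statistic cannot show that they are different animals. The members and the 16 other lists (180 of 188 entries of all lists matched) were chosen with earlier results of these data known. Named are all members, up to 4 genes of smallest p per list, and the 3 nearest patterns to Krt18, Krt19 and Vim. Some genes that this rule names are not reported here. Figures used matplotlib 3.10.9.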

Additional observations from a re-analysis of the deposited data

How the results depend on the processing

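Krt18, Cdh1, Cdh2 and Vim kept their direction and their call in all 14 other settings. Epcam lost its call in the 3 settings scaled to library totals (0.45 in edgeR, 0.50 and 0.47 in limma on log2(FPKM + 0.1) and log2(FPKM + 1)), and kept it in the other 11. Krt7, never called, changed sign to 0.0103 with DESeq2, 0.15 with the replicate block and 0.0203 with median-of-ratios factors, ranged from -0.39 to 0.53 on leaving out 1 library and was -0.90 with library totals. Krt19, never called, turned to -0.17 with library totals, -0.0863 in limma on log2(FPKM + 0.1) and -0.0796 on log2(FPKM + 1). Over all genes 6285 were called, 50.6% of them higher. With library totals 9828 were called (13.4% higher), in limma 9922 (13.7%) and 9843 (13.8%), and on leaving out 1 library 3777 to 7024, the lowest without GZM 2. The number of called members was 4 to 6 in every setting.

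The labels number the samples of both groups from 1 to 3 without saying that numbers pair them. Deviations of samples with the same number correlated at -0.14, 0.16 and -0.27, so the numbers were not taken as pairs. With the replicate number as a block 5166 genes and the same number of members, 5, were called, and the 4 ratios kept their direction (exact sign-flip p = 0.25, the smallest that 3 pairs allow). Ratios against Krt18 kept their sign on leaving out any 1 library (-3.20 to -2.35 for Krt19, -2.98 to -1.74 for Krt8, -5.50 to -4.46 for Vim), as did Cdh1 to Cdh2 (0.38 to 0.80). Sox9, Krt19 and Krt7 had 41 to 225 counts per library.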
